A study of Mus musculus with 12 samples.

Results

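The genes of DNA replication and mitosis were followed in the jejunum of male mice that had or lacked Akp3 and were given the peptide IIAEK or its vehicle. The set is 35 genes, 18 of replication and 17 of mitosis, taken by symbol from the RefSeq accessions that the array gives its probes. All 35 were on the array, on 53 probes, and all 35 were well above background on all 12 arrays, so that the whole set was among the 27565 genes tested. The rule uses the function of a gene and no measured value, but the members were chosen with earlier results of these data known.

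Expression was measured on 12 single-colour Agilent arrays, 3 in each of 4 groups. IAP-KO (Akp3-/-) mice, which lack the gene of a duodenal intestinal alkaline phosphatase, and wild-type mice started at 7 weeks of age. The IIAEK groups of both genotypes were given IIAEK, a peptide of 5 amino acids known for lowering cholesterol, by mouth at 600 mg per kg body weight a day for 14 days in carboxymethylcellulose sodium salt at 5 g/L. The vehicle groups of both genotypes received carboxymethylcellulose sodium salt at 5 g/L alone, and all mice were fasted for 8 h before collection. The groups are thus Akp3-/- on IIAEK, Akp3-/- on vehicle, wild type on IIAEK and wild type on vehicle. One label field of the IIAEK samples gives weeks in place of days, and the titles and the protocol give days. The labels used here name neither the strain nor the cells in which Akp3 was deleted.

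In the intestine, division is largely restricted to the crypts, where stem cells and their transit-amplifying daughters copy their DNA and divide before the cells move onto the villus and stop. Replication genes are induced as a cell enters S phase, largely through E2F factors. Mitosis genes follow in G2 and M, largely through the DREAM and MuvB complexes with B-Myb and FoxM1 at the cell cycle genes homology region (CHR), together with NF-Y at CCAAT boxes. In tissue RNA a lower level of such genes can come from fewer dividing cells or from less RNA per cell, and these cannot be told apart.

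The promoters of 5 members are shown because they carry motifs whose frequency differs between the replication and the mitosis members. The windows run from 250 bases before to 50 bases after the RefSeq start on build GRCm38.p6, 5' to 3' on the strand of the gene. Mcm3 lies at chr1:20820263-20820562 on the minus strand and Mcm5 at chr8:75109259-75109558 on the plus strand. Ccnb2 lies at chr9:70421505-70421804, Cdc20 at chr4:118437294-118437593 and Cdk1 at chr10:69352863-69353162, all on the minus strand. Capitals mark E2F motifs (TTTCCCGC, TTTGGCGC, TTTGCCGC or TTTCGCGC), the CHR motif (TTTGAA) and the CCAAT box, each on either strand.
Mcm3: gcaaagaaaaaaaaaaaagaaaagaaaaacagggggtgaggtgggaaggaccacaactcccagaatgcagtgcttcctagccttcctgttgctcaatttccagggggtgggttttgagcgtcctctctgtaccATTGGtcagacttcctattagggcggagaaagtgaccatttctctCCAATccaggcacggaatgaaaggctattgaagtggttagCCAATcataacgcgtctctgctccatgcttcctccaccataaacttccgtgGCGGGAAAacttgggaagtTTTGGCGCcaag
Mcm5: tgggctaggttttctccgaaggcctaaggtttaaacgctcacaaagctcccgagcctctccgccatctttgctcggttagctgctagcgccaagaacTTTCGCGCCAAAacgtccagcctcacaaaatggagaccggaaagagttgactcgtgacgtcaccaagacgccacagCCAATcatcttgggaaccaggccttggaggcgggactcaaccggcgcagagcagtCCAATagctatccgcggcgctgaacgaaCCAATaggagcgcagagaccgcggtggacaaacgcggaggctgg
Ccnb2: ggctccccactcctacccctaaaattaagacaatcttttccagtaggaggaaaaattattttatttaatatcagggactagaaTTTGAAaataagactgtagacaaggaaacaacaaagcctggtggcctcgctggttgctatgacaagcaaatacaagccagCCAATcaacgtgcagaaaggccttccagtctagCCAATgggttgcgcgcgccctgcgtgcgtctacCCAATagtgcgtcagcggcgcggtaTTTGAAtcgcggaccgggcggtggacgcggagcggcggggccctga
Cdc20: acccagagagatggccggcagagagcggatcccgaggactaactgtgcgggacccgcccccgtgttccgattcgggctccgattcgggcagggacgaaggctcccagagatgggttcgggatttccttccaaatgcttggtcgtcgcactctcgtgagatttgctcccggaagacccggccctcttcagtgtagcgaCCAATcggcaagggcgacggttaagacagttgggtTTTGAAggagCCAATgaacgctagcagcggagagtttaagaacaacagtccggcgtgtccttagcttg
Cdk1: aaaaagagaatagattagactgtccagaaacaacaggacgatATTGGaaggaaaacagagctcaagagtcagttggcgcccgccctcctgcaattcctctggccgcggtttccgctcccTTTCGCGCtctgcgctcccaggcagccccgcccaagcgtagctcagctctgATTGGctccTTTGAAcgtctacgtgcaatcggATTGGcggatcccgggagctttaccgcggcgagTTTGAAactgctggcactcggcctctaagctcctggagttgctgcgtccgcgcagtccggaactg
Mcm3 and Mcm5, subunits of the replicative helicase, held 2 E2F motifs each, which in Mcm5 overlap on opposite strands, and no CHR motif. Ccnb2, a B-type cyclin, held 2 CHR motifs, and Cdc20, an activator of the anaphase-promoting complex, held 1, with no E2F motif in either. Cdk1, the kinase that drives entry into mitosis, held both kinds, with 1 E2F motif and 2 CHR motifs.

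Promoter windows were available for 28 of the 35 members, 14 of replication and 14 of mitosis; those of Mcm4, Gins1, Gins2, Gmnn, Ccna2, Aurkb and Foxm1 were not used here. An E2F motif occurred in 6 of 14 replication members (42.9%), namely Mcm3, Mcm5, Mcm6, Mcm7, Cdc6 and Cdt1, against 1 of 14 mitosis members (7.14%) and 2.61% of 27025 genes. The CHR motif occurred in 1 of 14 replication members (7.14%), Mcm2, in 11 of 14 mitosis members (78.6%) and in 20.2% of all genes. A CCAAT box was present in 8 of 14 replication members (57.1%), in 13 of 14 mitosis members (92.9%) and in 41.1% of all genes. All 11 mitosis promoters with a CHR motif also held a CCAAT box (78.6%), a combination found in 8.97% of all genes. A match of letters is a description of these windows and not a binding site. Only these exact spellings within 300 bases were searched, so a window without a match is not shown to lack a site.

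**Figure D1:**
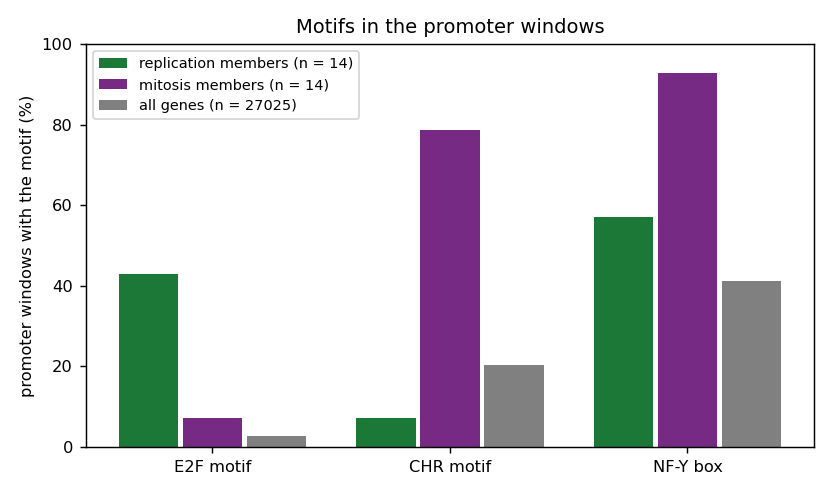
Share of RefSeq promoter windows (percent of windows' genes) that hold an E2F motif, a CHR motif or a CCAAT box (labelled NF-Y box), for 14 replication members, 14 mitosis members and 27025 genes. The E2F bar is highest for the replication members at 42.9% and the CHR bar for the mitosis members at 78.6%.

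Levels are log2 signals after subtraction of the 75th percentile of their array, so that a level of 0 is that percentile. The 75th percentile of the processed signal was between 410 and 578 intensity units, 60.0% to 67.1% of spots were well above background, and no spot was saturated. Akp3 was well above background on 0 of 3 Akp3-/- arrays on IIAEK, 0 of 3 Akp3-/- arrays on vehicle, 3 of 3 wild-type arrays on IIAEK and 2 of 3 wild-type arrays on vehicle. The jejunal genes Fabp1 (9.10 to 9.53), Apoa4 (8.73 to 9.55) and Lct (6.98 to 8.25) were high on all 12 arrays. The stomach gene Gkn1 was well above background on none and Tff1 on 2. The ileal genes Fabp6 (-4.46 to -0.70) and Slc10a2 (-4.74 to -2.52) and the colon gene Car1 (-2.21 to -1.38) were far lower. These were still well above background on all 12 arrays. Fabp6 was highest in Akp3-/- on vehicle replicate 3 (-0.70) and wild type on vehicle replicate 2 (-0.94). Wild type on IIAEK replicate 3 stood apart in exocrine pancreas genes, described further on, and many of the differences that use it are also given without it. Those of single genes of the other lists are given only with it. Nothing in the labels says whether the replicates of a group were independent beyond being separate samples, so the p-values measure the spread between these samples.

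No gene of the 27565 tested passed an adjusted p of 0.05 in any of the 5 comparisons with limma's moderated test, and therefore none of the 35 members did. The same was true of limma with a mean-variance trend. An unadjusted p under 0.05 was reached by 1277 to 4190 genes, depending on the comparison. The member values below are differences with their errors, none of which passed the adjusted test.

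The mean deviation of the 35 members from each gene's own 12-array mean was 0.28, -0.004 and 0.02 on the Akp3-/- IIAEK arrays and 0.11, 0.13 and -0.26 on the Akp3-/- vehicle arrays. It was -0.08, -0.08 and 0.48 on the wild-type IIAEK arrays and -0.08, -0.17 and -0.35 on the wild-type vehicle arrays. As group means this was 0.10 ± 0.16 in Akp3-/- on IIAEK, -0.01 ± 0.22 in Akp3-/- on vehicle, 0.11 ± 0.32 in wild type on IIAEK and -0.20 ± 0.14 in wild type on vehicle (SD, n = 3 each). Wild type on vehicle lay below both IIAEK groups, barely so for wild type on IIAEK, and the other pairs of groups overlapped. A single array, wild type on IIAEK replicate 3, held the highest level of 23 of the 35 members. Wild type on vehicle replicate 3 held the lowest level of 18 members, and Akp3-/- on vehicle replicate 3 the lowest of 15.

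The group order was similarly uneven. Wild type on IIAEK had the highest group mean for 19 of 35 members and Akp3-/- on IIAEK for 12, while wild type on vehicle had the lowest for 23 and Akp3-/- on vehicle for 10. The spread was widest in wild type on IIAEK for 18 members and in Akp3-/- on vehicle for 15, the 2 groups that each hold an array with replicate number 3 far from the other 2. Over the 12 arrays a member spanned from 0.56 log2 units for Mki67, the proliferation antigen Ki-67, to 2.77 for Rrm2, with a median span of 1.07.

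**Figure D2:**
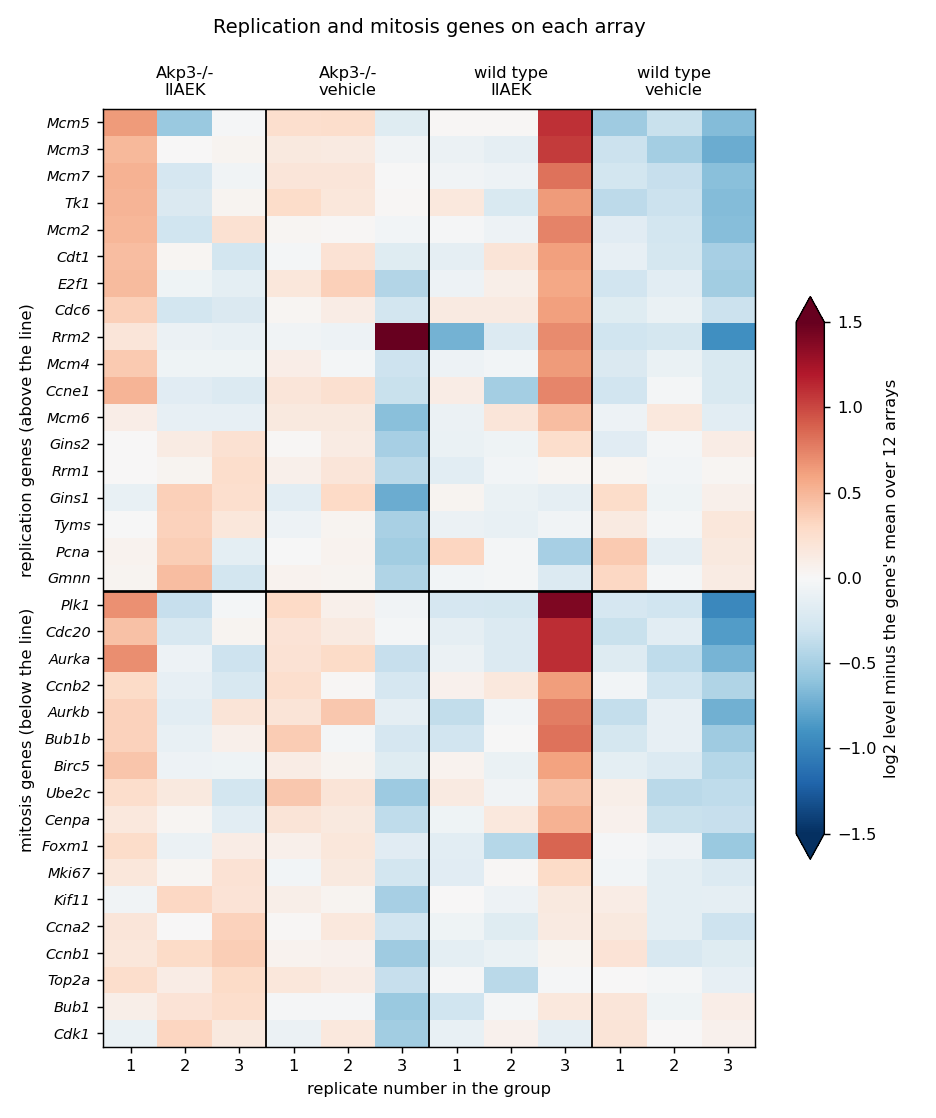
Heat map of the 35 members (rows, replication above the line and mitosis below it) on the 12 arrays (columns, by group and replicate number), as the log2 level minus the gene's mean over the 12 arrays. Wild type on IIAEK replicate 3 is red for most rows, wild type on vehicle replicate 3 and Akp3-/- on vehicle replicate 3 are blue for many, and Rrm2 passes the top of the colour range on the last of these.

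**Figure D3:**
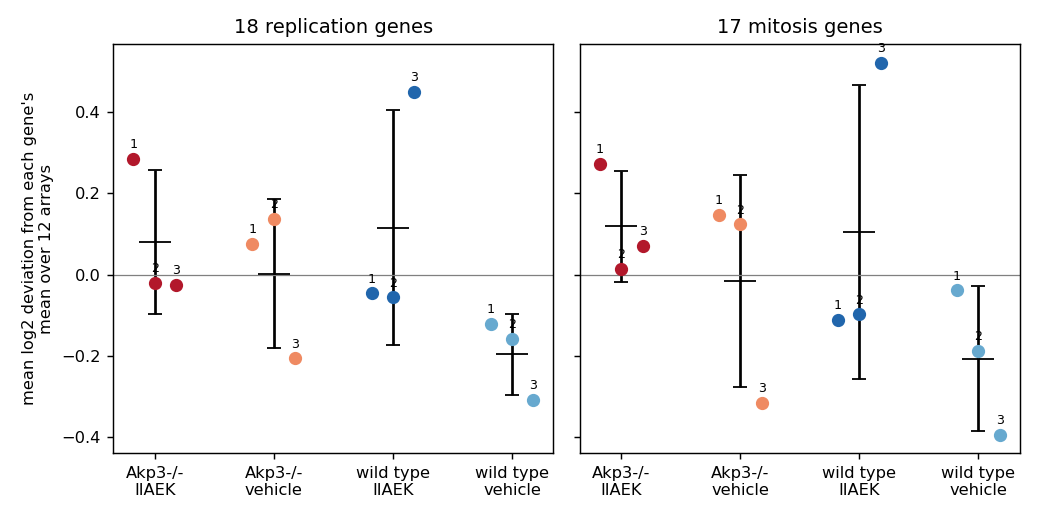
Mean log2 deviation from each gene's 12-array mean on every array, for 18 replication members (left) and 17 mitosis members (right); points are arrays with their replicate numbers, bars the group mean and SD (n = 3). The points of the same array lie at similar heights in both panels, with wild type on IIAEK replicate 3 highest at 0.45 and 0.52.

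In wild-type mice, IIAEK against vehicle gave a positive log2 difference for 27 of 35 members, beside 43.8% of all genes, with a median of 0.41 for the members and -0.06 for all genes. An unadjusted p under 0.05 was reached by 8 members, beside 12.8% of all genes, with all 8 in the higher direction (5.83% of all genes) and 0 in the lower direction (6.98% of all genes). The 8 were Mcm2, Mcm3, Mcm5, Mcm7, Cdc6, Cdt1, Tk1 and Ccnb2. The arrays of the 2 groups did not overlap, with IIAEK higher, for 10 members (10.7% of all genes), and with IIAEK lower for 1, Tyms (14.3% of all genes).

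Of the 8 members just named, 4 are helicase subunits. Mcm2 to Mcm7 form the ring that unwinds DNA at the replication fork. Mcm3 was at 2.01, 1.53 and 1.57 in Akp3-/- on IIAEK, 1.68, 1.67 and 1.47 in Akp3-/- on vehicle, 1.44, 1.40 and 2.57 in wild type on IIAEK and 1.21, 1.02 and 0.78 in wild type on vehicle. All 3 wild-type arrays on IIAEK lay above all 3 on vehicle, by little for replicates 1 and 2 and by far for replicate 3. The wild-type difference was 0.80 ± 0.28 (SE; 1.74-fold; limma adjusted p = 0.373). Mcm5 was at 1.25, 0.06 and 0.60 in Akp3-/- on IIAEK, 0.86, 0.88 and 0.43 in Akp3-/- on vehicle, 0.63, 0.64 and 1.71 in wild type on IIAEK and 0.08, 0.29 and -0.03 in wild type on vehicle. The wild-type groups did not overlap, with a difference of 0.88 ± 0.33 (SE; 1.84-fold; limma adjusted p = 0.373), whereas the Akp3-/- groups did. Mcm7 was at 2.96, 2.19 and 2.39 in Akp3-/- on IIAEK, 2.63, 2.63 and 2.44 in Akp3-/- on vehicle, 2.40, 2.37 and 3.26 in wild type on IIAEK and 2.17, 2.10 and 1.82 in wild type on vehicle. Here too the wild-type groups did not overlap, and the difference was 0.65 ± 0.26 (SE; limma adjusted p = 0.373). Mcm2 and Mcm4 also separated the wild-type groups, at 0.57 ± 0.25 and 0.36 ± 0.21 (SE), and Mcm6 at 0.21 ± 0.22 did not.

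The licensing factors, which load the helicase onto origins, gave mixed values. Cdc6 was at -0.77, -1.39 and -1.34 in Akp3-/- on IIAEK, -1.10, -1.01 and -1.39 in Akp3-/- on vehicle, -0.99, -0.98 and -0.50 in wild type on IIAEK and -1.30, -1.22 and -1.45 in wild type on vehicle. The wild-type groups did not overlap, with a difference of 0.50 ± 0.20 (SE; limma adjusted p = 0.373). Cdt1 differed by 0.52 ± 0.23 (SE) with overlap between the wild-type groups, and Gmnn, the inhibitor of Cdt1, by -0.23 ± 0.20 (SE).

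Among the genes of nucleotide supply, Tk1, the thymidine kinase of S phase, was at 2.55, 1.81 and 2.07 in Akp3-/- on IIAEK, 2.30, 2.20 and 2.05 in Akp3-/- on vehicle, 2.19, 1.81 and 2.67 in wild type on IIAEK and 1.64, 1.71 and 1.38 in wild type on vehicle. Wild type on vehicle was below every array of the other 3 groups. The wild-type difference was 0.65 ± 0.23 (SE; 1.57-fold; limma adjusted p = 0.373). Tyms, thymidylate synthase, ran the other way at -0.18 ± 0.16 (SE), as did Rrm1, the large subunit of ribonucleotide reductase, at -0.06 ± 0.16 (SE). E2f1, a transcription factor of the G1 to S transition, differed by 0.52 ± 0.25 (SE) without overlap, and its partner in time, cyclin E1 (Ccne1), by 0.29 ± 0.30 (SE) with overlap. Gins1 and Gins2, subunits of the GINS complex of the helicase, differed by -0.16 ± 0.23 and 0.07 ± 0.18 (SE), and Pcna, the sliding clamp of the polymerases, by -0.20 ± 0.24 (SE).

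Of the mitosis genes, Ccnb2 was the one with an unadjusted p under 0.05 in this comparison. It was at 2.49, 2.08 and 1.96 in Akp3-/- on IIAEK, 2.46, 2.22 and 1.96 in Akp3-/- on vehicle, 2.26, 2.36 and 2.83 in wild type on IIAEK and 2.16, 1.90 and 1.76 in wild type on vehicle. The wild-type groups did not overlap, at a difference of 0.55 ± 0.21 (SE; 1.46-fold; limma adjusted p = 0.373), and the Akp3-/- groups covered nearly the same range. Birc5, survivin of the chromosomal passenger complex, was at 4.52, 4.03 and 4.04 in Akp3-/- on IIAEK, 4.21, 4.15 and 3.92 in Akp3-/- on vehicle, 4.16, 4.0 and 4.70 in wild type on IIAEK and 3.95, 3.90 and 3.67 in wild type on vehicle. The wild-type groups were separate by a narrow gap, at 0.45 ± 0.20 (SE; limma adjusted p = 0.391). Cdc20 was at 2.04, 1.36 and 1.64 in Akp3-/- on IIAEK, 1.81, 1.73 and 1.57 in Akp3-/- on vehicle, 1.47, 1.39 and 2.71 in wild type on IIAEK and 1.27, 1.44 and 0.76 in wild type on vehicle. The wild-type groups overlapped, and replicate 3 of each lay at either end, at 0.70 ± 0.32 (SE; limma adjusted p = 0.392).

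Cenpa, the histone H3 variant of centromeres, was at 0.57, 0.45 and 0.26 in Akp3-/- on IIAEK, 0.61, 0.56 and 0.04 in Akp3-/- on vehicle, 0.36, 0.58 and 0.93 in wild type on IIAEK and 0.48, 0.09 and 0.07 in wild type on vehicle. The wild-type groups overlapped, and the difference was 0.41 ± 0.21 (SE; limma adjusted p = 0.402). Of the mitotic kinases, Plk1 differed by 0.80 ± 0.42, Aurka by 0.70 ± 0.36, Aurkb by 0.52 ± 0.28 and the related Bub1b by 0.48 ± 0.27 (SE), all with overlap. Cdk1 and Bub1 differed by -0.15 ± 0.18 and -0.13 ± 0.18 (SE). Ube2c, the ubiquitin-conjugating enzyme of the anaphase-promoting complex, differed by 0.41 ± 0.26 (SE) and Foxm1 by 0.32 ± 0.29 (SE). Mki67 (0.18), the spindle motor gene Kif11 (0.09), cyclin A2 (Ccna2, 0.06) and cyclin B1 (Ccnb1, 0.01) lay near 0 on this log2 scale.

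**Figure D4:**
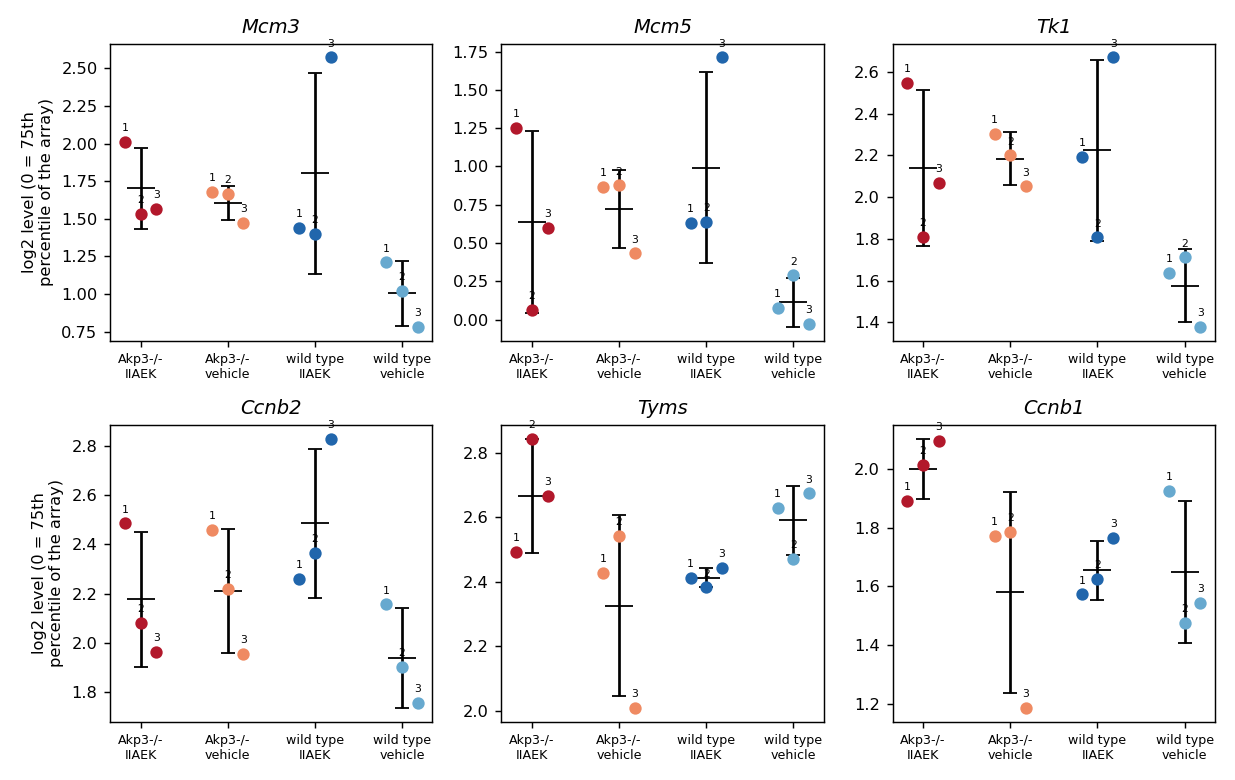
Log2 level on every array for 6 members (Mcm3, Mcm5, Tk1, Ccnb2, Tyms and Ccnb1); each vertical axis has its own range, points are arrays with replicate numbers, bars the group mean and SD (n = 3). For Mcm3, Mcm5 and Tk1 wild type on IIAEK replicate 3 is the highest array and wild type on vehicle has the lowest mean, while the mean of Ccnb1 is highest in Akp3-/- on IIAEK.

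The wild-type difference rests in good part on 1 array. Leaving out wild type on IIAEK replicate 3 gave differences of 0.41 for Mcm3, 0.52 for Mcm5, 0.36 for Mcm7, 0.31 for Mcm2, 0.12 for Mcm4 and 0.08 for Mcm6. It gave 0.43 for Tk1, 0.34 for Cdc6, 0.33 for Cdt1, 0.33 for E2f1 and 0.04 for Rrm2. Of the mitosis genes, Ccnb2 was then at 0.37, Birc5 at 0.24, Cdc20 at 0.27, Cenpa at 0.25, Plk1 at 0.25, Aurka at 0.28, Aurkb at 0.19, Bub1b at 0.15 and Ube2c at 0.28. Every one of these was smaller than with all 12 arrays, and that of Tyms, the other way, was then -0.19. Ccne1 and Foxm1 were then just below 0, at -0.02 and -0.07, and Pcna just above it, at 0.01. Without wild type on IIAEK replicate 3 the median of the members was 0.12 in place of 0.41, 23 of 35 members stayed above 0, and 0 reached an unadjusted p under 0.05 (1.96% of all genes in the higher direction). Without wild type on vehicle replicate 3 the median was 0.33 and again 0 members reached it (2.84% of all genes). Leaving out wild type on IIAEK replicate 1 gave 14 members (7.27% of all genes), and replicate 2 gave 11 (5.27% of all genes). On slide 1, which held 1 array of each wild-type group, the median was -0.01 with 16 of 35 members above 0. On slide 2, with 2 arrays of each, it was 0.57 with 29 of 35 above 0.

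In Akp3-/- mice, IIAEK against vehicle also gave a positive difference for 27 of 35 members, beside 53.8% of all genes, but the median was 0.08 against 0.02 for all genes. An unadjusted p under 0.05 was reached by 1 member, beside 4.63% of all genes. This was Ccnb1, in the higher direction (2.34% of all genes) with 0 in the lower (2.29% of all genes). Ccnb1 and Bub1 were the 2 members whose groups did not overlap (5.11% of all genes for IIAEK higher and 3.06% for IIAEK lower). Ccnb1, the cyclin partner of Cdk1 at mitotic entry, was at 1.89, 2.01 and 2.09 in Akp3-/- on IIAEK, 1.77, 1.78 and 1.19 in Akp3-/- on vehicle, 1.57, 1.63 and 1.77 in wild type on IIAEK and 1.92, 1.48 and 1.54 in wild type on vehicle. Akp3-/- on IIAEK had the 2 highest arrays, and Akp3-/- on vehicle replicate 3 the lowest. The Akp3-/- difference was 0.42 ± 0.18 (SE; 1.34-fold; limma adjusted p = 0.893). Bub1, a kinase of the spindle checkpoint, was at 0.03, 0.13 and 0.19 in Akp3-/- on IIAEK, -0.09, -0.09 and -0.62 in Akp3-/- on vehicle, -0.37, -0.09 and 0.09 in wild type on IIAEK and 0.12, -0.14 and 0.03 in wild type on vehicle. Its Akp3-/- difference was 0.38 ± 0.18 (SE; limma adjusted p = 0.893).

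Kif11 was at -1.15, -0.79 and -0.89 in Akp3-/- on IIAEK, -1.0, -1.05 and -1.60 in Akp3-/- on vehicle, -1.08, -1.17 and -0.95 in wild type on IIAEK and -0.98, -1.24 and -1.23 in wild type on vehicle. Cdk1 was at 0.17, 0.60 and 0.42 in Akp3-/- on IIAEK, 0.18, 0.43 and -0.25 in Akp3-/- on vehicle, 0.17, 0.34 and 0.13 in wild type on IIAEK and 0.46, 0.27 and 0.34 in wild type on vehicle. Both overlapped between the Akp3-/- groups, and both differed there by 0.28 ± 0.18 (SE; limma adjusted p = 0.893). Among the replication genes Tyms was at 2.49, 2.84 and 2.66 in Akp3-/- on IIAEK, 2.43, 2.54 and 2.01 in Akp3-/- on vehicle, 2.41, 2.38 and 2.44 in wild type on IIAEK and 2.63, 2.47 and 2.67 in wild type on vehicle. The Akp3-/- groups overlapped, with a difference of 0.34 ± 0.16 (SE; limma adjusted p = 0.893). Gins1 was at -0.09, 0.38 and 0.27 in Akp3-/- on IIAEK, -0.13, 0.32 and -0.72 in Akp3-/- on vehicle, 0.06, -0.08 and -0.11 in wild type on IIAEK and 0.30, -0.04 and 0.09 in wild type on vehicle. The difference was 0.36 ± 0.23 (SE; limma adjusted p = 0.893). Gins2 was at 0.23, 0.35 and 0.46 in Akp3-/- on IIAEK, 0.25, 0.35 and -0.27 in Akp3-/- on vehicle, 0.13, 0.16 and 0.50 in wild type on IIAEK and 0.05, 0.20 and 0.34 in wild type on vehicle. The Akp3-/- difference was 0.24 ± 0.18 (SE; limma adjusted p = 0.893), and the lowest array in both GINS genes was Akp3-/- on vehicle replicate 3.

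Rrm2, the small subunit of ribonucleotide reductase, was the exception on that array. It was at 1.97, 1.70 and 1.67 in Akp3-/- on IIAEK, 1.74, 1.71 and 3.64 in Akp3-/- on vehicle, 1.08, 1.58 and 2.50 in wild type on IIAEK and 1.49, 1.52 and 0.87 in wild type on vehicle. The value of 3.64 is the highest of the 12, on an array where only 2 of the 35 members lay above their own 12-array mean. The Akp3-/- difference of Rrm2 was -0.58 ± 0.48 (SE; limma adjusted p = 0.894). The 6 Mcm genes were at values from -0.09 ± 0.33 (SE) for Mcm5 to 0.17 ± 0.21 (SE) for Mcm4 in the same comparison.

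The Akp3-/- median took either sign according to the arrays used. It was -0.02 without Akp3-/- on vehicle replicate 3, with 17 of 35 members above 0, and -0.05 without Akp3-/- on IIAEK replicate 1, with 14 above 0. Without Akp3-/- on IIAEK replicate 2 it was 0.18, with 32 above 0. Without Akp3-/- on vehicle replicate 2, 5 members reached an unadjusted p under 0.05 in the higher direction (1.77% of all genes). With the replicate number as a block 0 members reached it (2.47% of all genes), Ccnb1 included. On slide 1 it was 0.01 with 18 of 35 above 0, and on slide 2, with 1 array a group, 0.28 with 32 above 0.

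**Figure D5:**
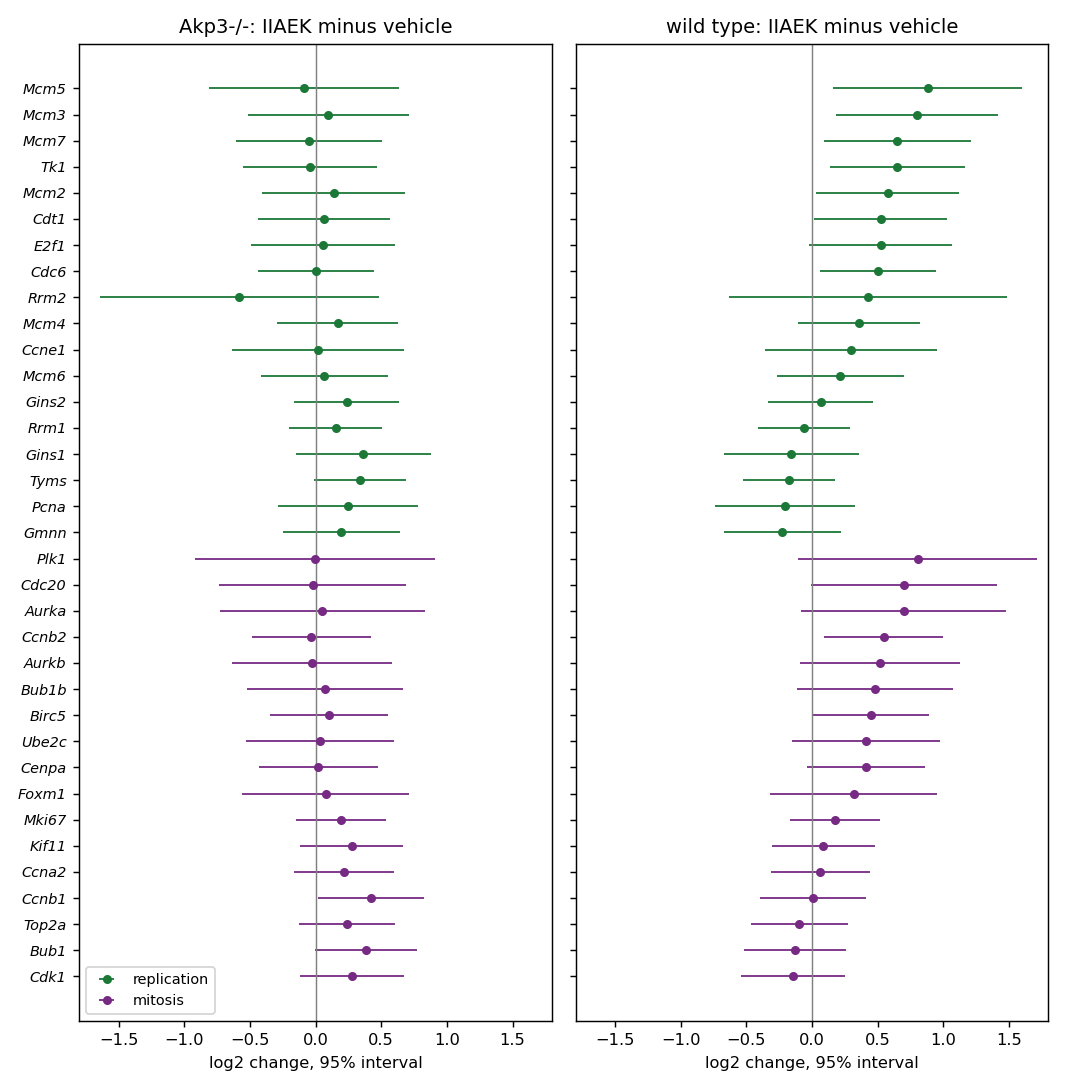
Log2 difference of IIAEK minus vehicle with its 95% interval for each of the 35 members in Akp3-/- mice (left) and wild-type mice (right), replication members in green above mitosis members in purple. In wild type the intervals of 8 members lie above 0, and in Akp3-/- that of Ccnb1 does.

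The 2 genotypes share no array in these treatment comparisons, so the members can be set side by side. Both differences were above 0 for 19 of 35 members (17.3% of all genes), only the Akp3-/- one for 8 (36.5%), only the wild-type one for 8 (26.5%) and neither for 0 (19.7%). Each difference alone was above 0 for 27 of 35 members (53.8% of all genes in Akp3-/- and 43.8% in wild type). The count above 0 in both follows largely from these 2 counts, and a shared response was not tested. The 8 above 0 in Akp3-/- and below 0 in wild type were Pcna, Gins1, Gmnn, Rrm1, Tyms, Top2a, Cdk1 and Bub1. Without wild type on IIAEK replicate 3, Pcna was just above 0 in wild type, at 0.01. Gins2, Ccne1, Ccnb1, Ccna2 and Foxm1 were then below 0 in wild type, from -0.07 to -0.02. The Akp3-/- signs also moved with the arrays used, as given above. Top2a, the topoisomerase that untangles sister chromatids, differed by 0.24 in Akp3-/- and by -0.10 in wild type.

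The test of the difference itself is the interaction, the Akp3-/- difference minus the wild-type difference. It was below 0 for 22 of 35 members and above 0 for 13 (55.3% of all genes above 0), with a median of -0.34 beside 0.07 for all genes. An unadjusted p under 0.05 was reached by 1 member, beside 15.2% of all genes, with a positive interaction (9.57% of all genes) and by 0 with a negative one (5.63% of all genes). The 1 was Tyms, at 0.52 ± 0.23 (SE; limma adjusted p = 0.318). For Tk1 the interaction was -0.69 ± 0.33, for Mcm5 -0.97 ± 0.47 and for Mcm7 -0.70 ± 0.36 (SE), with limma adjusted p of 0.343, 0.345 and 0.365. For the mitosis genes Bub1, Ccnb2, Cdk1 and Ccnb1 it was 0.51 ± 0.25, -0.58 ± 0.29, 0.42 ± 0.26 and 0.41 ± 0.26 (SE), with limma adjusted p from 0.350 to 0.438. Without wild type on IIAEK replicate 3 the median of the interaction over the members was -0.08, and the interaction was 0.54 for Tyms, -0.47 for Tk1, -0.61 for Mcm5 and -0.41 for Mcm7. For Bub1, Ccnb2, Cdk1 and Ccnb1 it was then 0.62, -0.41, 0.38 and 0.47. With the replicate number as a block 0 members reached an unadjusted p under 0.05 with a positive interaction (9.35% of all genes), Tyms included.

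On vehicle, Akp3-/- against wild type gave a positive difference for 24 of 35 members, beside 45.6% of all genes, with medians of 0.21 for the members and -0.03 for all genes. An unadjusted p under 0.05 was reached by 2 members, beside 11.3% of all genes, both in the higher direction, Tk1 and Rrm2 (4.76% of all genes), and by 0 in the lower (6.58% of all genes). The groups did not overlap, with Akp3-/- higher, for 8 members (10.2% of all genes), and with Akp3-/- lower for 0 (13.3% of all genes). This comparison and that of IIAEK in wild type share the 3 wild-type vehicle arrays, and wild type on vehicle replicate 3 is low in both. Tk1 differed by 0.61 ± 0.23 (SE; 1.53-fold; limma adjusted p = 0.428) without overlap. Rrm2 differed by 1.07 ± 0.48 (SE; limma adjusted p = 0.439), with 1 of the 3 Akp3-/- arrays at 3.64 and the other 2 just above the wild-type range. Mcm3 and Mcm7 differed by 0.60 ± 0.28 and 0.54 ± 0.26 (SE; limma adjusted p = 0.443 and 0.448), both without overlap.

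Aurkb, the kinase of the chromosomal passenger complex, was at -1.12, -1.62 and -1.28 in Akp3-/- on IIAEK, -1.28, -1.06 and -1.60 in Akp3-/- on vehicle, -1.84, -1.51 and -0.70 in wild type on IIAEK and -1.82, -1.59 and -2.18 in wild type on vehicle. On vehicle its difference was 0.55 ± 0.28 (SE; limma adjusted p = 0.463), and the lowest Akp3-/- array just overlapped the highest of wild type. Plk1, a kinase of mitotic entry and exit, was at 1.48, 0.45 and 0.76 in Akp3-/- on IIAEK, 1.09, 0.87 and 0.74 in Akp3-/- on vehicle, 0.54, 0.53 and 2.19 in wild type on IIAEK and 0.54, 0.49 and -0.18 in wild type on vehicle. The vehicle groups did not overlap, at 0.62 ± 0.42 (SE; limma adjusted p = 0.549). All 3 Akp3-/- arrays on vehicle lay above wild type on vehicle for Cdc20, at 0.55 ± 0.32 (SE; limma adjusted p = 0.503). Bub1 differed in the other direction, at -0.27 ± 0.18 (SE; limma adjusted p = 0.543).

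The same comparison moved with the Akp3-/- array that was low in most members. Without Akp3-/- on vehicle replicate 3 the median over the members was 0.34 with 29 of 35 above 0, and without wild type on vehicle replicate 3 it was 0.12 with 22 above 0. The members with an unadjusted p under 0.05 in the higher direction were then 4 (3.74% of all genes) and 0 (2.96% of all genes). Without wild type on IIAEK replicate 3, which enters this comparison through the shared variance, they were 8 (5.53% of all genes). Without this array and Akp3-/- on vehicle replicate 3 together, the 2 highest in exocrine pancreas genes and a choice made after the data were seen, they were 11, 5 of replication and 6 of mitosis (4.69% of all genes). Slide 1 held 4 Akp3-/- and 2 wild-type arrays, and with slide as a block the median was 0.12. At an unadjusted p under 0.05 there were then 2 members in the higher direction (6.02% of all genes) and 2 in the lower. In the fit without the block, 6.58% of all genes were at that threshold in the lower direction. That share is not given here for the fit with the block, so the 2 lower members have no matching share. Within slide 1 the member median was 0.21, and within slide 2 it was -0.06 with 15 of 35 above 0.

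On IIAEK, Akp3-/- against wild type gave a positive difference for 16 of 35 members (54.3% of all genes), with medians of -0.07 for the members and 0.03 for all genes. With limma, 0 members reached an unadjusted p under 0.05, beside 7.93% of all genes (4.96% higher and 2.97% lower). The groups did not overlap for 3 members, all with Akp3-/- higher (6.52% of all genes, with 3.44% in the other direction), namely Top2a, Ccnb1 and Tyms. Top2a was at 2.77, 2.62 and 2.79 in Akp3-/- on IIAEK, 2.68, 2.62 and 2.16 in Akp3-/- on vehicle, 2.49, 2.11 and 2.50 in wild type on IIAEK and 2.52, 2.48 and 2.39 in wild type on vehicle. The genotypes did not overlap on IIAEK, with a difference of 0.36 ± 0.17 (SE; limma adjusted p = 0.619). Ccnb1 differed by 0.34 ± 0.18 and Tyms by 0.25 ± 0.16 (SE; limma adjusted p = 0.639 and 0.671). These are genes in which wild type on IIAEK replicate 3 was not far from its group.

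Mcm6 was at 3.76, 3.54 and 3.53 in Akp3-/- on IIAEK, 3.81, 3.8 and 3.03 in Akp3-/- on vehicle, 3.57, 3.84 and 4.12 in wild type on IIAEK and 3.58, 3.81 and 3.50 in wild type on vehicle. The IIAEK groups overlapped, at -0.23 ± 0.22 (SE; limma adjusted p = 0.749). Cdc6 and Mcm5 differed by -0.34 ± 0.20 and -0.36 ± 0.33 (SE; limma adjusted p = 0.653 and 0.747), Ccnb2 by -0.31 ± 0.21 and Bub1 by 0.24 ± 0.18 (SE; limma adjusted p = 0.681 and 0.699). Without wild type on IIAEK replicate 3 the median over the members was 0.19 with 30 of 35 above 0, the opposite sign. Mcm6 was then at -0.10, Cdc6 at -0.18, Ccnb2 at -0.14, Top2a at 0.43, Ccnb1 at 0.40, Tyms at 0.27 and Bub1 at 0.35, and Mcm5 was at 0.00. Without Akp3-/- on IIAEK replicate 1 it was -0.24 with 13 above 0. Within slide 1 it was 0.20 with 32 above 0, and within slide 2 it was -0.32 with 12 above 0.

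Replication and mitosis members had median differences close to each other. For IIAEK in Akp3-/- both medians were 0.08, and for IIAEK in wild type they were 0.39 over 18 replication members and 0.41 over 17 mitosis members. On vehicle, Akp3-/- against wild type gave 0.18 and 0.24, and on IIAEK -0.08 and 0.00. In wild type an unadjusted p under 0.05 was reached by 7 of 18 replication members and by 1 of 17 mitosis members, all in the higher direction (5.83% of all genes), a difference in counts that was not tested. This split moved with the settings. It was 8 and 6 without wild type on IIAEK replicate 1 (7.27% of all genes), 6 and 4 with the mean over all probes of a gene (5.67%), 7 and 3 with a mean-variance trend (6.24%) and 0 and 0 without wild type on IIAEK replicate 3 (1.96%). Without that array the wild-type medians were 0.10 for replication and 0.15 for mitosis. The mean deviation of the replication members minus that of the mitosis members lay between -0.09 and 0.11 on every array. On 10 of 12 arrays both sets lay on the same side of their mean, and on the other 2, Akp3-/- on IIAEK replicates 2 and 3, both were within 0.07 of it.

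The motif classes, by exact spelling in these windows, were set beside these values as a description. A member without a match may still be controlled through such a site. The 6 replication members with an E2F motif had a median difference for IIAEK of 0.03 in Akp3-/- and of 0.59 in wild type, where they ran from 0.21 to 0.88. The 8 without it had medians of 0.10 in Akp3-/- and 0.36 in wild type, where they ran from -0.20 to 0.65. The 11 mitosis members with a CHR motif had medians of 0.05 in Akp3-/- and 0.41 in wild type. The 3 without it, Birc5, Bub1 and Ccnb1, had 0.38 in Akp3-/- and 0.01 in wild type. Without wild type on IIAEK replicate 3 the wild-type medians were 0.35 with an E2F motif, 0.03 without it, 0.25 with a CHR motif and -0.05 without it.

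Where a member had further probes, they mostly gave the same sign. For 14 members, 16 other probes were well above background on every array, and their difference had the sign of the probe used in 12 of 16 for IIAEK in wild type and in 10 of 16 for IIAEK in Akp3-/-. On vehicle, Akp3-/- against wild type gave 14 of 16, on IIAEK 13 of 16, and the interaction 15 of 16. The widest gaps were in Mcm6. Its other probe gave -1.02 for IIAEK in Akp3-/-, 1.12 for Akp3-/- against wild type on vehicle and -1.17 for the interaction. The Mcm6 probe used gave 0.07, -0.08 and -0.15.

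Other genes of the cycle were taken from separate lists. Of 26 other replication genes tested, 19 lay above 0 for IIAEK in wild type (43.8% of all genes) with a median of 0.31. An unadjusted p under 0.05 was reached by 3 in the higher direction (11.5%, beside 5.83% of all genes). In the lower direction 1 reached it (3.85%, beside 6.98% of all genes). The median was 0.14 without wild type on IIAEK replicate 3. The 3 higher were Chaf1b (0.69 ± 0.27) and Chaf1a (0.55 ± 0.22), of the histone chaperone CAF-1, and the helicase subunit Cdc45 (0.69 ± 0.29; SE). Of 28 other mitosis genes, 15 lay above 0 (43.8% of all genes) with a median of 0.07. The mitotic kinesins Kif20a (0.51 ± 0.20) and Kif2c (0.42 ± 0.18; SE) reached an unadjusted p under 0.05. These are 7.14% of the list, near the 5.83% of all genes in the higher direction. The median of the 28 genes was -0.07 without wild type on IIAEK replicate 3. For IIAEK in Akp3-/-, 23 of 28 other mitosis genes lay above 0 with a median of 0.20 and 17 of 26 other replication genes with a median of 0.08 (53.8% of all genes). None of either list had an unadjusted p under 0.05 (2.34% of all genes higher and 2.29% lower). A list of G1 cyclins and their kinases, with Myc, Mycn and Cdc25a, lay above 0 in 7 of 8 genes for IIAEK in wild type (43.8% of all genes). The median was 0.34, and 0.27 without wild type on IIAEK replicate 3. Of these, cyclin D3 (Ccnd3, 0.62 ± 0.23) and Cdk4 (0.44 ± 0.18; SE) had an unadjusted p under 0.05 (5.83% of all genes in the higher direction). In Akp3-/- 3 of 8 lay above 0 (53.8% of all genes), with a median of -0.15, and 0 had an unadjusted p under 0.05. The 15 cell cycle inhibitors tested had medians of 0.04 in Akp3-/- and 0.05 in wild type, and 0.08 in wild type without wild type on IIAEK replicate 3. Between Akp3-/- and wild type, the medians were 0.19 on vehicle and -0.02 on IIAEK for the other replication genes, and 0.10 on vehicle and 0.12 on IIAEK for the other mitosis genes.

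Markers of other cells moved with the members on some arrays, and their part in the member values was not tested. Values here are mean deviations from each gene's 12-array mean, over the genes of a list. The 13 exocrine pancreas genes ranged from -2.86 to -1.54 in Akp3-/- on IIAEK, from -2.62 to 4.18 in Akp3-/- on vehicle, from -2.16 to 8.52 in wild type on IIAEK and from -1.34 to 1.12 in wild type on vehicle. Of these genes 11 were well above background on all 12 arrays, Pnlip on 8 and Prss2 on 7. The highest array was wild type on IIAEK replicate 3, highest also in the members, and the next was Akp3-/- on vehicle replicate 3, the second lowest in the members. With both of these arrays left out, a choice made after the data were seen, the member medians for IIAEK were -0.02 in Akp3-/- and 0.12 in wild type. The 12 smooth muscle genes ranged from -0.29 to 0.29 in Akp3-/- on IIAEK, from -0.21 to 0.28 in Akp3-/- on vehicle, from -0.10 to 0.90 in wild type on IIAEK and from -0.80 to -0.15 in wild type on vehicle. The 10 fibroblast and matrix genes ranged from -0.09 to 0.29 in Akp3-/- on IIAEK, from -0.60 to 0.30 in Akp3-/- on vehicle, from 0.14 to 0.59 in wild type on IIAEK and from -0.81 to 0.18 in wild type on vehicle. In both lists the highest array was again wild type on IIAEK replicate 3.

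The crypt and the villus compartments were read from 11 crypt base stem cell genes and 16 brush border genes. The crypt genes ranged from -0.10 to 0.13 in Akp3-/- on IIAEK, from -0.003 to 0.13 in Akp3-/- on vehicle, from -0.20 to 0.42 in wild type on IIAEK and from -0.24 to -0.01 in wild type on vehicle. The brush border genes ranged from 0.09 to 0.16 in Akp3-/- on IIAEK, from -0.16 to 0.06 in Akp3-/- on vehicle, from -0.54 to 0.13 in wild type on IIAEK and from -0.02 to 0.37 in wild type on vehicle. The array highest in the crypt genes, at 0.42, and lowest in the brush border genes, at -0.54, was wild type on IIAEK replicate 3, beside 0.48 for the members. Median differences for IIAEK were -0.04 in Akp3-/- and 0.29 in wild type for the crypt genes, and 0.12 in Akp3-/- and -0.43 in wild type for the brush border genes. Without that array the wild-type medians were 0.10 and -0.30.

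B cells also divide, in the follicles of the gut wall. The 11 B cell genes tested ranged from -1.54 to -1.06 in Akp3-/- on IIAEK, from 1.14 to 1.61 in Akp3-/- on vehicle, from -1.08 to 1.74 in wild type on IIAEK and from -1.56 to 1.24 in wild type on vehicle. Between the Akp3-/- groups their median difference was -2.63, where that of the members was 0.08. Median differences for IIAEK in Akp3-/- were -0.49 over 6 germinal centre genes, 0.02 over 7 plasma cell genes and -0.27 over 9 T cell genes, and in wild type 0.24, 0.07 and -0.11. Over 8 Paneth and 8 goblet cell genes they were 0.75 and 0.08 in Akp3-/- and -0.24 and -0.12 in wild type. Without wild type on IIAEK replicate 3 the wild-type medians were 0.40 for germinal centre, 0.05 for plasma cell and -0.08 for T cell genes. They were then -0.18 for Paneth and -0.10 for goblet cell genes.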

How the data were processed

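Total RNA of the jejunum of 12 male mice was labelled with Cy3 and hybridised to Agilent mouse arrays, per the labels' protocols. Per the file headers, Feature Extraction 10.7.3.1 gave the deposited spot signals as intensity, subtracted for background and not scaled between arrays. The authors also deposited a table of log2 values, used as an alternative. It follows the log2 signal scaled to the 75th percentile and centred on each probe's median (r at least 0.99999), as found from its values and not stated; its direction is that of the signal, and its column medians were between -0.0797 and 0.149. The 12 arrays lay on 2 slides, which were also 2 scans: slide 1 held replicate 1 of each group and replicate 2 of both Akp3-/- groups.

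Spots marked non-uniform, 0 to 4 per array, were dropped, spots of a probe averaged and the array's 75th percentile over probes subtracted. Of 56605 probes, 32994 were named through RefSeq accessions. The brightest probe stood for a gene, which entered the test if some group had it well above background throughout, leaving 27565 genes (11753 of them unnamed probes). Group means were fitted over all 12 arrays with limma 3.58.1 in R 4.3.3, two-sided, with Benjamini-Hochberg adjustment over all genes and a threshold of 0.05. The script was tested on simulated data. SE are limma's and SD are over 3 arrays, whose number limits the precision. An exact permutation test of 3 against 3 cannot go below 0.1.

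The members, lists, tests and alternatives were chosen with earlier results of these data known. All members are accounted for. Values on every array are given for up to 4 replication and 4 mitosis members with the smallest p in each comparison, and up to 4 genes of the other lists are named. Counts and medians of a list are descriptions. Alternatives were normexp background correction on median signals, quantile normalization, other filters and probe rules, slide and replicate number as blocks, each slide alone, the deposited value table, a mean-variance trend, fewer groups in the fit and each array left out. Normexp used the median signal because the files used here hold no mean signal. Samples sharing a replicate number had deviations correlated at r = 0.06 on average, with pairs from -0.25 to 0.35, so the numbers were not taken as pairs. Samples of different groups were correlated at r = 0.11 on average on the same slide and at -0.10 on different slides. Slide entered the fit only as an alternative. One gene of the other lists is not reported here.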

Additional observations from a re-analysis of the deposited data

How the results depend on the processing

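With 3 arrays a group, the count of genes passing the adjusted test depended on the fit, and no member was among those called under any alternative. It was 0 in every comparison. With slide as a block it was 1 for IIAEK in wild type, 1 for Akp3-/- against wild type on IIAEK and 1 for the interaction. With the arrays of the compared groups alone it was 14 for IIAEK in Akp3-/-, 1 for Akp3-/- against wild type on vehicle and 5 on IIAEK. Leaving out 1 array gave 0 to 1, 0 to 0, 0 to 2, 0 to 3 and 0 to 0 for IIAEK in wild type, IIAEK in Akp3-/-, Akp3-/- against wild type on vehicle and on IIAEK, and the interaction. The median over the members, in the same order, ran from 0.12 to 0.52, -0.05 to 0.18, 0.11 to 0.34, -0.24 to 0.19 and -0.49 to -0.081 when 1 array was left out. Within slide 1 it was -0.013 for IIAEK in wild type, 0.20 for Akp3-/- against wild type on IIAEK and -0.019 for the interaction, and within slide 2 it was -0.063 for Akp3-/- against wild type on vehicle. With the 2 arrays highest in exocrine pancreas genes left out, chosen after the data were seen, it was 0.12 for IIAEK in wild type. For Akp3-/- against wild type it was then 0.34 on vehicle and 0.19 on IIAEK. On vehicle, 11 members in place of 2 then had an unadjusted p under 0.05 in the higher direction (4.69% and 4.76% of all genes). The replication median minus the mitosis median ran from -0.074 to 0.12, -0.06 to 0.04, -0.16 to 0.082, -0.15 to -0.02 and -0.10 to 0.07 in the same order when 1 array was left out. Within slide 1 it was 0.14 for IIAEK in wild type, 0.095 for Akp3-/- against wild type on vehicle and -0.13 for the interaction, and within slide 2 it was -0.11 for IIAEK in Akp3-/-. With the mean over all probes of a gene it was 0.076 for Akp3-/- against wild type on vehicle and 0.027 on IIAEK. The causes were not tested. The other 313 values kept their direction within the spread between arrays and their side of the threshold. With the replicate block, no gene was called and the member medians stayed at 0.41, 0.08, 0.21, -0.07 and -0.34. The members with an unadjusted p under 0.05 in the higher direction were then 7, 0, 2, 0 and 0. The shares of all genes were 5.94%, 2.47%, 4.92%, 4.84% and 9.35%. Without the block the members were 8, 1, 2, 0 and 1, beside 5.83%, 2.34%, 4.76%, 4.96% and 9.57% of all genes.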
